A study of Bos taurus with 8 samples.

Results

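The genes described here encode the machinery that moves newly made proteins into the endoplasmic reticulum (ER) and carries them on to the Golgi. They were taken from the deposited table by name: SEC followed by a digit, the COPI coat symbols beginning COPA, COPB, COPG, COPE or COPZ, TMED and TRAPPC with a digit, and the single symbols of the SSR, SPCS and ARF series. A gene had to be the only symbol of its probe set, and 58 of 9155 genes matched. The match used names alone, but the genes were chosen with earlier results of these data known. Each was represented by its brightest probe set over the 8 arrays, a probe set being a group of short probes for 1 transcript. All 58 were found by Entrez number among the RefSeq genes of ARS-UCD2.0, and 0 had another symbol there. SEC14L1 and SEC14L2 matched by name alone. They belong to a family of lipid-binding proteins outside this pathway, so 56 genes fit the description of ER translocation and ER-Golgi transport.

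A milk protein begins its route at the SEC61 channel, where its signal peptide opens a path through the ER membrane while the ribosome is still translating. The translocon-associated (TRAP) complex helps the chain through, and the signal peptidase complex cuts the signal peptide off. Folded cargo then leaves the ER in vesicles shaped by the COPII coat and is selected in part by p24 proteins, which the TMED genes encode. TRAPP complexes tether the arriving vesicles, SEC22B takes part in their fusion, and the COPI coat, recruited by ARF GTPases, returns escaped ER proteins from the Golgi. Secretory cells of the lactating gland, which make caseins and whey proteins in bulk, hold an extensive ER and Golgi.

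The tissue was the mammary gland of 4 lactating Holstein cows (Bos taurus), each biopsied in both states. A gland that had held its milk for 12 h is called full, and a gland at 0 h, with the milk just taken out, is called empty, which gives 4 full and 4 empty samples on 8 arrays. The question of the series is what stored milk does to expression, and the states were compared within each cow. No treatment or genotype is named, all samples share the breed and the lactating state, and each library is bulk tissue of unsorted cells. Which biopsy was taken first, and from which side of the udder, is not stated in the labels, so these cannot be told apart from the state of the gland.

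The 6 luminal epithelial markers KRT8, KRT18, KRT19, EPCAM, ELF5 and CDH1 had a summed level (log2 of the sum of their linear values, as for each list below) of 14.75 to 14.81 in empty and 14.78 to 14.87 in full gland, and none of the 6 was dimmer than 8.10 on average, so the labelled tissue had its markers. The full libraries of cows 2 and 4 were the least like the rest. Their median correlation to the other arrays was 0.969 and 0.975, while each of the 6 others reached at least 0.986. In the GAPDH control, the 5' minus the 3' probe set was -3.31 log2 in the full library of cow 2 and between -2.13 and -1.53 in the other 7 libraries. A wide gap of this kind is a usual sign of shortened RNA. Values are therefore given per cow, and counts are repeated without cows 2 and 4.

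No gene of the machinery passed the test, and the data show a small mean difference toward lower levels in full gland that lay mainly in cows 2 and 4. Of the 58 genes, 44 had a mean difference (full minus empty) below 0, where 51.4% of all genes did. The median difference was -0.07 log2, against -0.0036 over the 9155 genes. Most of the 58 were bright, and 52 lay at or above the median level of all probe sets. Of these, 40 were below 0 (76.9%, median -0.08). Among all genes at or above that level, 56.3% were below 0 (median -0.019), so the gap to genes of like brightness was narrower. The differences ranged from -0.28 to 0.20 log2, that is from 0.826-fold to 1.15-fold. In limma with cow as a block, 0 of 58 genes passed an adjusted p of 0.05, beside 0% of the 24016 probe sets, and the smallest adjusted p among the 58 was 0.993. At an unadjusted p under 0.05 there was 1 gene, SEC62, which was lower, and 1.67% of all genes were lower at that level.

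Cow by cow, the median difference of the 58 genes was -0.02, -0.14, 0.02 and -0.13 log2. Over all genes it was -0.05, 0.03, -0.02 and 0.02 in the same order. The genes thus lay below the array as a whole in cows 2 and 4 and slightly above it in cows 1 and 3. The number of the 58 that were lower in full gland was 32, 35, 24 and 40 in cows 1 to 4, or 55.2%, 60.3%, 41.4% and 69.0%. Of all genes, 63.1%, 45.8%, 55.7% and 46.8% were lower in these cows. A difference below -0.2 log2 was seen for 8, 28, 3 and 19 genes in cows 1 to 4, and a difference above 0.2 for 2, 12, 5 and 6. Of all genes, 19.7%, 22.2%, 12.0% and 17.7% were below -0.2 and 5.84%, 29.8%, 7.54% and 25.5% above 0.2, so values above 0.2 were also more frequent over the whole array in cows 2 and 4.

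**Figure D1:**
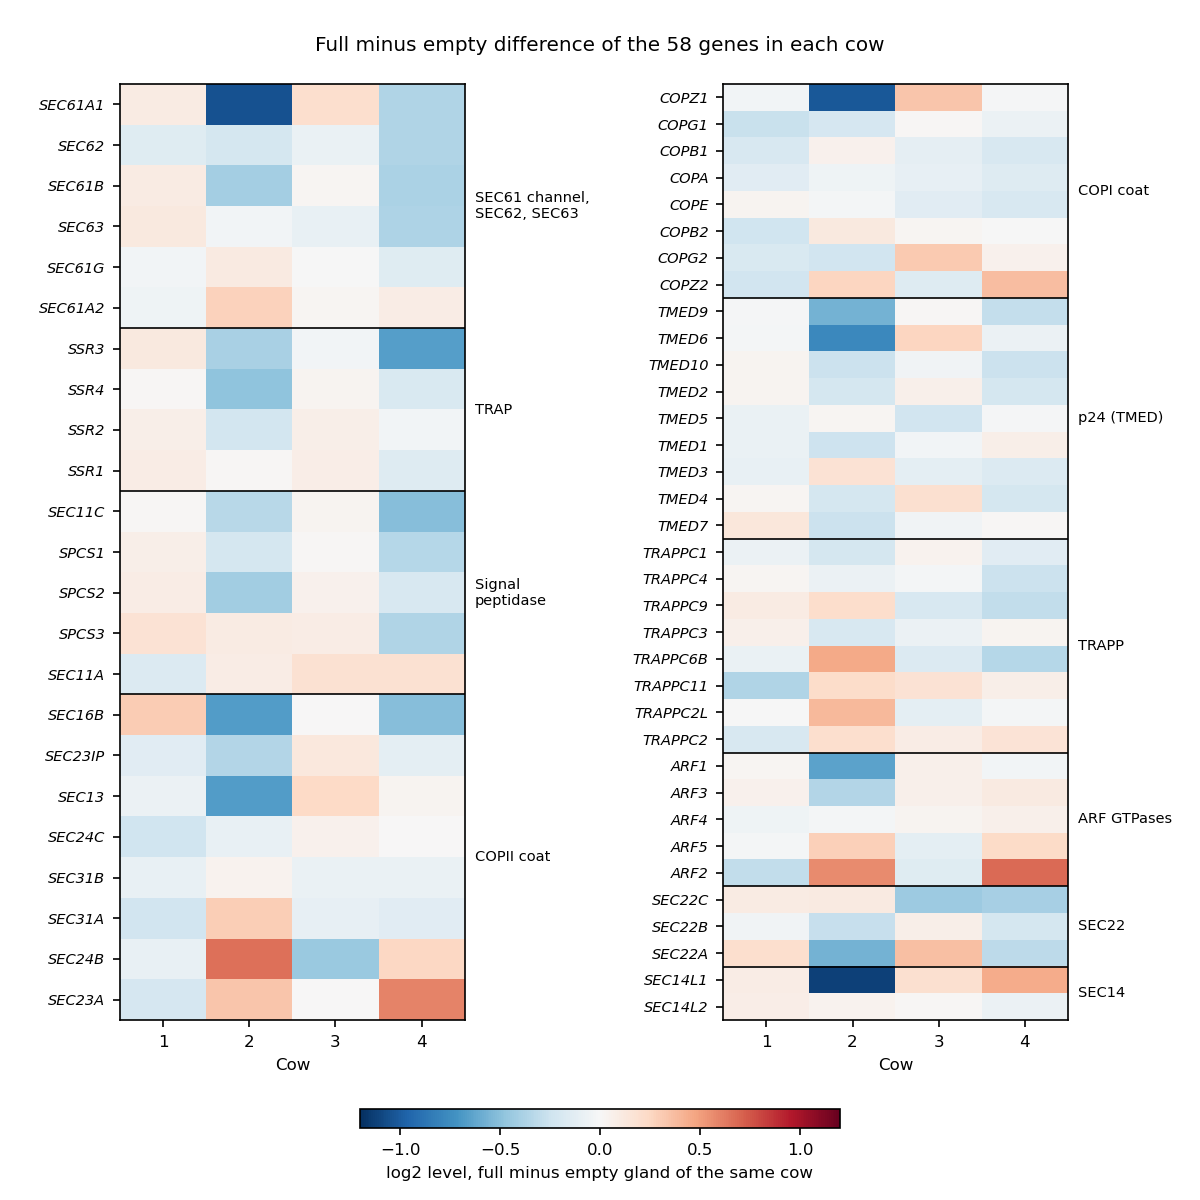
Colour gives the full minus empty difference in log2 level for each of the 58 genes (rows, by role) in each cow (columns), blue for lower and red for higher in full gland. The deepest colours lie in cows 2 and 4, with the translocon, TRAP and signal peptidase genes mostly blue there and near 0 in cows 1 and 3.

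Agreement between the animals was scarce. Only SEC62 and COPA were lower in full gland in all 4 cows, 2 of 58 genes, where 7.11% of all genes were lower in every cow. None of the 58 was higher in all 4 cows, where 3.59% of all genes were. Neither count is above the background of the array. A pattern of lower in cows 2 and 4 with higher in cows 1 and 3 was found for 12 genes, and 8.88% of all genes had it. The opposite pattern was found for 4 genes, and 17.3% of all genes had it.

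**Figure D2:**
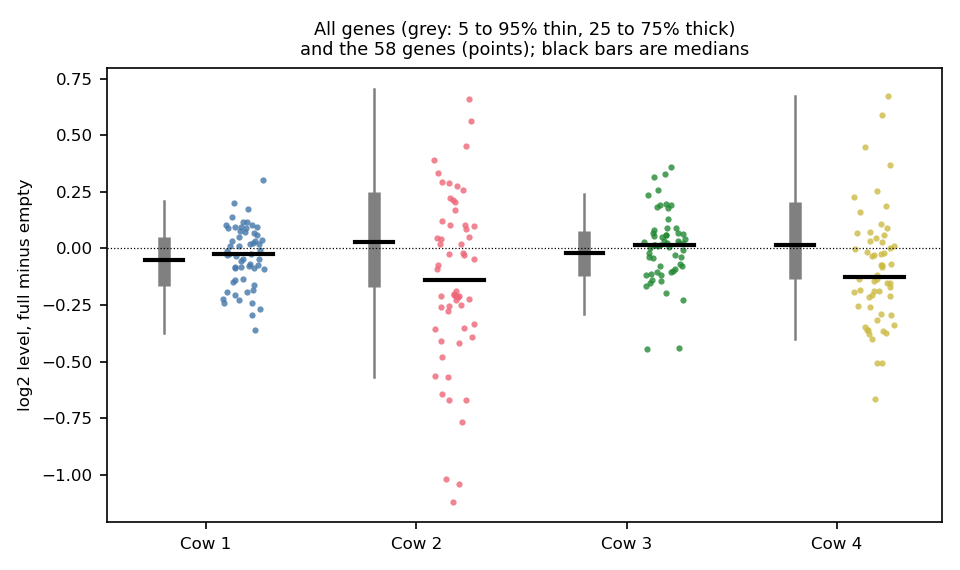
For each cow, the grey lines and bars show the spread of the full minus empty log2 differences of all 9155 genes and the points are the 58 genes, with black bars at the medians. The medians of the 58 genes are -0.14 in cow 2 and -0.13 in cow 4, below those of all genes (0.03 and 0.02) but not in cows 1 and 3.

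Without cows 2 and 4, 31 of 58 genes were lower and the median was -0.0028, against -0.03 over all genes, so the members lay slightly above the array there. Leaving out cow 2 alone gave 37 lower genes and a median of -0.04, against -0.012 over all genes. Leaving out cow 4 alone gave 42 and -0.04, against -0.015. Set against each gene's own mean over the 8 libraries, the median level of the 58 was -0.10 in the full library of cow 2 and -0.11 in that of cow 4. In the full libraries of cows 1 and 3 it was 0.04 and 0.05, and in the 4 empty libraries it lay between 0.003 and 0.07. The low values were thus those of 2 full libraries, and the empty libraries lay closer together.

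**Figure D3:**
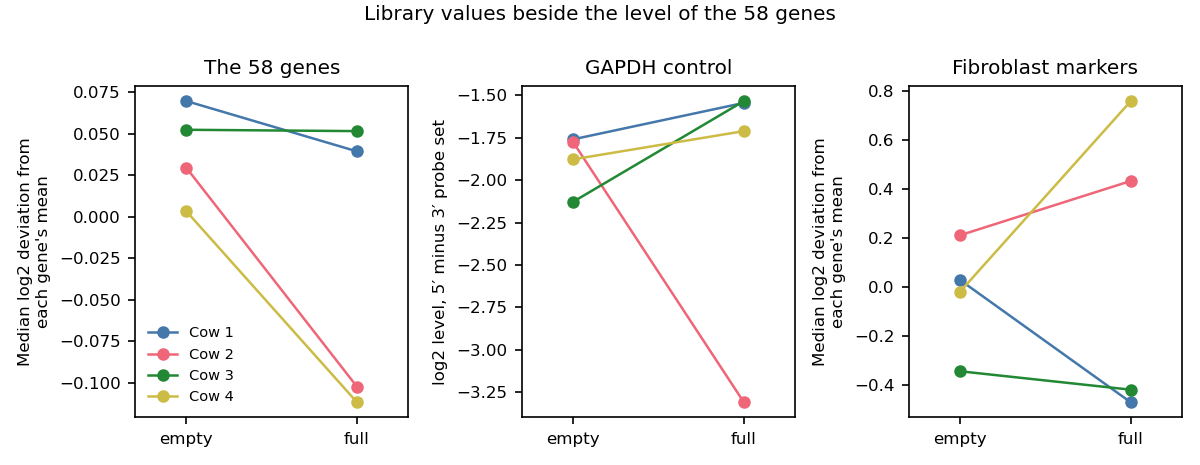
The panels give, for the empty and full library of each cow, the median log2 deviation of the 58 genes from each gene's mean, the log2 gap between the 5' and 3' GAPDH control probe sets, and the median log2 deviation of 6 fibroblast markers. The 58 genes are low in the full libraries of cows 2 and 4, the GAPDH gap is wide in the full library of cow 2 alone, and the fibroblast markers are highest in the full library of cow 4.

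Some lists of cell type markers had a median difference above 0 in both cows 2 and 4, and others did not. The median difference of 6 fibroblast markers was -0.42, 0.16, -0.09 and 0.80 in cows 1 to 4, and that of 7 myoepithelial markers was -0.04, 0.18, -0.15 and 0.68. The summed log2 level of the fibroblast list was 13.93 to 14.51 in empty and 13.82 to 15.01 in full gland, and 5 of 6 markers had a mean difference above 0. For the myoepithelial list it was 13.22 to 13.63 and 13.12 to 14.23, and 7 of 7 were above 0. In each list the highest sum was that of the full library of cow 4.

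The median of 6 myeloid markers was -0.34, -0.15 and 0.81 in cows 1, 3 and 4 and 0.37 in cow 2, and the summed level was 11.64 to 11.83 in empty and 11.48 to 12.09 in full gland, with 5 of 6 above 0. T cell markers had medians of -0.14, 0.42, -0.06 and 0.41 and sums of 9.47 to 9.87 and 9.44 to 10.04, with 5 of 6 above 0. Plasma cells also hold much ER, and their 4 measured markers had medians of -0.09, -0.02, -0.03 and 0.26. The sums were 11.77 to 12.17 and 11.56 to 12.11, with 3 of 4 above 0. Those 3 were dim, at means of 5.83 to 6.70 where the median of all probe sets was 7.16. The sums were mostly JCHAIN, which had a mean of 11.86 and differed by -0.0069.

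Skeletal muscle markers had a median of 0.55 in cow 4 and between -0.16 and 0.06 in the others, with sums of 10.17 to 10.54 in empty and 10.26 to 11.52 in full gland and 3 of 5 above 0. Endothelial markers had medians of -0.20, -0.47, 0.18 and 0.06, with sums of 11.88 to 12.11 and 11.61 to 12.07 and 1 of 5 above 0. Adipocyte markers stayed within medians of -0.13 and -0.04, with sums of 13.03 to 13.20 and 12.95 to 13.16 and 1 of 4 above 0. The sums were mostly FABP4, at a mean of 13.08, while the other markers were dim, at 5.35 to 6.26. In cow 2, CIDEC differed by 1.01 and LEP by -0.53, so these values say little about adipocytes. The luminal list had medians of -0.01, 0.13, 0.05 and 0.40 and 5 of 6 above 0. The exception was ELF5, the brightest of the 6, with 0.05, -0.29, 0.04 and -0.17 in cows 1 to 4. In cow 4 the luminal markers ranged from -0.17 for ELF5 to 1.36 for KRT18. Values made by RMA have no true 0, so no marker could be called absent. In bulk tissue, fewer cells of a type and less RNA per cell cannot be told apart, and the part of these values in the differences of the 58 genes was not tested.

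The SEC61 channel and its partners had a median difference of -0.13 log2 over 6 genes, of which 5 were lower, and none passed in limma. Their medians were 0.03, -0.12, 0.01 and -0.36 in cows 1 to 4. SEC62, a membrane protein that helps short precursors into the channel after translation, had log2 levels of 11.40, 11.33, 11.80 and 11.19 in the full glands of cows 1 to 4. In the empty glands it had 11.55, 11.54, 11.88 and 11.55. The full value was below the empty value in every cow, while the groups overlapped because both glands of cow 3 were high. The difference was -0.20 ± 0.08 log2 (the moderated standard error from limma over 4 cows, given in this way throughout), with a 95% interval of -0.39 to -0.01, an unadjusted p of 0.0407 and an adjusted p of 0.993. A second SEC62 probe set of similar brightness differed by -0.02, with 0.04, 0.34, -0.12 and -0.35 in cows 1 to 4.

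SEC61A1, the pore-forming subunit, had the lowest mean difference of the 58 genes, at -0.28 ± 0.21 log2 (adjusted p = 0.993 in limma). It was chosen for description after its values were seen. Its levels were 11.65, 10.45, 11.64 and 10.99 in the full glands of cows 1 to 4 and 11.55, 11.49, 11.44 and 11.35 in the empty glands. The empty glands were close together, and the full glands lay above them in cows 1 and 3 and below all of them in cows 2 and 4. Without cow 2, where it differed by -1.04, the mean difference was -0.02. SEC61B, a small tail-anchored subunit, had 12.38, 11.91, 12.30 and 11.94 in full and 12.29, 12.32, 12.27 and 12.32 in empty gland, and the full glands of cows 2 and 4 were likewise below all empty ones. SEC61G, the other small subunit, differed by -0.02, less than the SD of either group (0.12 for full, 0.08 for empty).

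SEC61A2, the paralog of the pore subunit, had a mean difference above 0, at 0.08 ± 0.08 log2 (95% interval -0.12 to 0.28, adjusted p = 0.993 in limma). Its levels were 10.31, 10.36, 10.10 and 10.34 in full and 10.37, 10.08, 10.07 and 10.25 in empty gland, and the groups overlapped. SEC61A2 has 4 further probe sets, which differed by between -0.09 and 0.02, and in cow 2 each of these was lower, by -0.27 to -0.82, where the brightest was higher by 0.27. The paralogs are close in sequence, and whether the probes took up signal of both genes was not tested. SEC63, which links the channel to the chaperone BiP, differed by -0.09, and its other probe sets by -0.19 and 0.05.

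**Figure D4:**
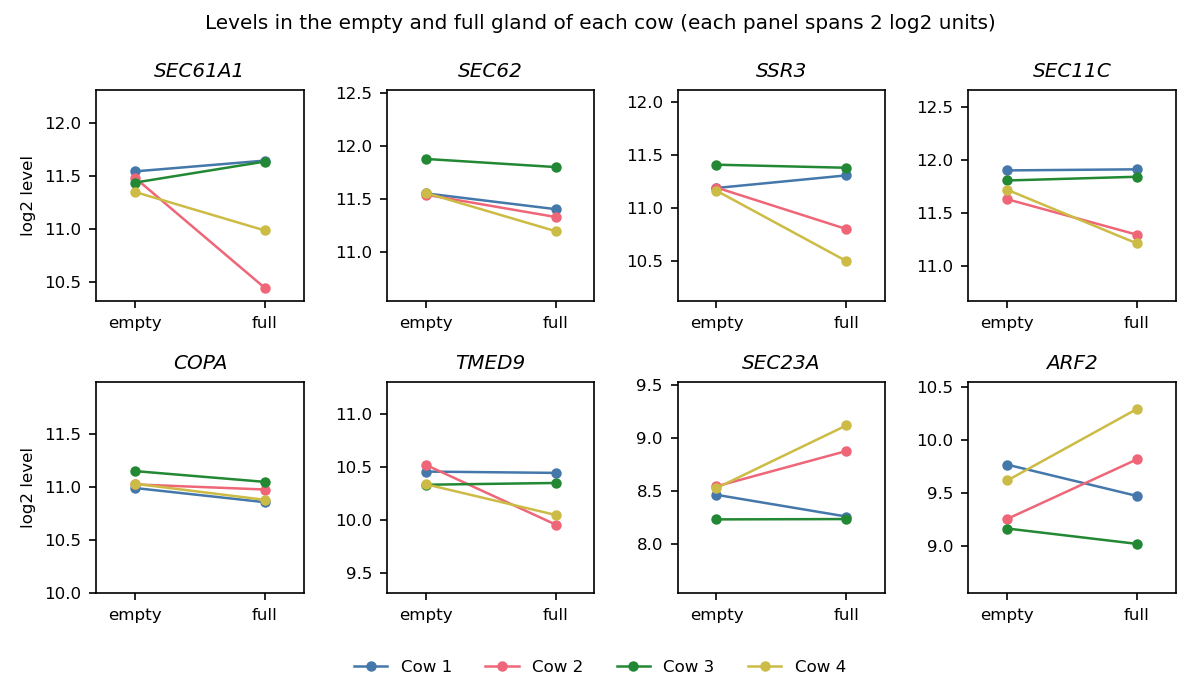
Each panel joins the log2 level of a gene in the empty and full gland of the same cow, over an axis of equal span. SEC62 and COPA slope down in all 4 cows, SEC61A1, SSR3, SEC11C and TMED9 slope down mainly in cows 2 and 4, and SEC23A and ARF2 slope up in these cows.

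The TRAP complex had a median of -0.09 over SSR1 to SSR4, with 3 of 4 genes lower and none passing. All 4 were lower in cow 4 and none in cow 1, where the median was 0.08. SSR3, its gamma subunit, had 11.31, 10.80, 11.38 and 10.50 in the full glands of cows 1 to 4 and 11.19, 11.19, 11.41 and 11.16 in the empty glands. The full glands of cows 2 and 4 lay below every other sample. The difference was -0.24 ± 0.14 log2 (95% interval -0.59 to 0.11, adjusted p = 0.993 in limma), and its second probe set gave nearly the same differences in each cow (0.11, -0.39, -0.04 and -0.55, against 0.12, -0.39, -0.03 and -0.66).

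SSR4, the delta subunit, differed by -0.15, with 12.76 ± 0.24 for full and 12.91 ± 0.03 for empty gland (SD, n = 4), so the spread among full glands was the wider. SSR2 differed by -0.03. SSR1, the alpha subunit, differed by 0.01 in its brightest probe set, while its other probe sets differed by -0.14 and -0.25. The brightest probe set of SSR1 was lower only in cow 4, and the third was lower by -0.88 in cow 2.

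Signal peptidase genes had a median of -0.12 over 5 genes, with 3 lower, and medians of 0.07, -0.21, 0.06 and -0.34 in cows 1 to 4. The mean differences of the 2 catalytic subunits had opposite signs. SEC11C had 11.91, 11.29, 11.84 and 11.21 in full and 11.90, 11.63, 11.80 and 11.72 in empty gland, and the full glands of cows 2 and 4 lay below all empty glands. Its difference was -0.20 ± 0.11 log2 (95% interval -0.48 to 0.08). SEC11A, the other catalytic subunit, had 10.34, 10.39, 10.45 and 10.58 in full and 10.51, 10.31, 10.27 and 10.40 in empty gland and differed by 0.07 ± 0.09 (95% interval -0.14 to 0.29). The adjusted p was 0.993 for both in limma, and the difference between them was not tested.

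SPCS1 and SPCS2, accessory subunits of the peptidase, each differed by -0.12, and both were lower in cows 2 and 4 and higher in cows 1 and 3. SPCS3, a subunit needed for cleavage, had 10.95, 10.86, 10.69 and 10.13 in full and 10.78, 10.76, 10.60 and 10.49 in empty gland. It was higher in full gland in 3 cows and lower by -0.36 in cow 4, for a mean difference of 0.0012. Its sign turned with median centring, with the mean of its probe sets and without cow 1, 2 or 3. Taken as a group, the 15 genes of channel, TRAP and signal peptidase were lower in 10 cases in cow 2 and 13 in cow 4, but in 4 each in cows 1 and 3, where 63.1% and 55.7% of all genes were lower, against 45.8% in cow 2 and 46.8% in cow 4.

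COPII coat genes had a median of -0.06 over 8 genes, with 6 lower and none passing. Their medians were -0.12, -0.02, 0.0038 and -0.04 in cows 1 to 4. In cow 1, 7 of the 8 were lower, as were 63.1% of all genes. The SD of the differences over the 8 genes was 0.48 in cow 2 and 0.32 in cow 4, against 0.40 and 0.33 over all genes. SEC23A, which forms the inner layer of the coat with SEC24 proteins, had 8.26, 8.88, 8.23 and 9.12 in the full glands of cows 1 to 4 and 8.46, 8.54, 8.23 and 8.53 in the empty glands. The difference was 0.18 ± 0.14 log2 (95% interval -0.17 to 0.53, adjusted p = 0.993 in limma), with the full glands of cows 2 and 4 above all others. Its second, dimmer probe set went the other way, at -0.17, with -0.48 in cow 2 and -0.45 in cow 4.

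SEC24B, a cargo-binding subunit, differed by 0.09 on average but by -0.09, 0.66, -0.45 and 0.25 in cows 1 to 4, and SEC24C by -0.07. The outer layer consists of SEC13 and SEC31 proteins. SEC31A differed by -0.04 and SEC31B by -0.05. SEC13, which is also a nuclear pore protein, had 10.66, 9.62, 10.36 and 10.32 in full and 10.73, 10.29, 10.12 and 10.29 in empty gland. The low sample was the full gland of cow 2, and without cow 2 the mean difference was 0.07 in place of -0.12.

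SEC16B, a scaffold protein of ER exit sites, differed by -0.22 ± 0.17 log2, with 0.30, -0.67, 0.0044 and -0.51 in cows 1 to 4. SEC23IP, which binds the coat, differed by -0.12, and by -0.35 in cow 2. Neither passed.

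COPI coat genes had a median of -0.09 over 8 genes, and 7 were lower. As for the COPII coat and unlike the translocon groups, the lowest median was that of cow 1, at -0.19. It was -0.03 in cow 2, -0.04 in cow 3 and -0.04 in cow 4. COPG1, the gamma subunit of the cargo-binding layer, had 10.95, 10.92, 11.26 and 10.95 in full and 11.22, 11.12, 11.24 and 11.02 in empty gland. Full glands were lower in cows 1, 2 and 4 and level in cow 3, and the difference was -0.13 ± 0.08 log2 (95% interval -0.32 to 0.06, adjusted p = 0.993 in limma). COPA, the alpha subunit of the outer layer, had 10.85, 10.97, 11.05 and 10.88 in full and 10.99, 11.02, 11.15 and 11.03 in empty gland.

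The full gland of COPA was lower in every cow, by -0.05 to -0.15, and the groups overlapped. The mean difference was -0.11 ± 0.06 log2 (95% interval -0.27 to 0.05), so it did not pass, and COPA is described because it was the other gene with a direction shared by all cows. A second COPA probe set, dim at a mean of 6.04, did not share that direction. It differed by 0.11, -0.49, 0.03 and 0.0056 in cows 1 to 4. COPB1 differed by -0.11, COPE by -0.08 and COPB2 by -0.02. COPZ1, the zeta subunit, had 10.28, 9.40, 10.41 and 10.08 in full and 10.31, 10.42, 10.08 and 10.09 in empty gland. Its mean difference was -0.18, and 0.09 without cow 2. Its dimmer second probe set was also lower in cow 2, by -0.97. COPZ2, another form of that subunit, had 9.15, 9.60, 8.83 and 9.58 in full and 9.38, 9.34, 8.98 and 9.21 in empty gland. It differed by 0.06, which turned to -0.0032 without cow 2 and -0.04 without cow 4. The probe set of COPG2 was dim, at a mean of 5.65 where the median of all probe sets was 7.16, and differed by -0.01.

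The p24 family was the largest group, and 9 of 9 TMED genes had a mean difference below 0, between -0.21 and -0.04 log2. None passed and none was lower in all 4 cows. Without cow 2, TMED4, TMED6 and TMED7 lay above 0, at 0.0023, 0.05 and 0.04, and without cow 4, TMED4 did, at 0.0028. By cow, 5, 7, 5 and 7 of the 9 were lower, with medians of -0.01, -0.25, -0.04 and -0.17. TMED9, which cycles between ER exit sites and the early Golgi, had 10.45, 9.96, 10.35 and 10.05 in full and 10.46, 10.52, 10.34 and 10.34 in empty gland. The full glands of cows 2 and 4 were below all empty glands and those of cows 1 and 3 were among them. The difference was -0.21 ± 0.12 log2 (95% interval -0.50 to 0.07, adjusted p = 0.993 in limma).

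TMED10 and TMED2 are partners of TMED9 in p24 complexes. TMED10 differed by -0.13 and TMED2 by -0.08, both with values of -0.21 to -0.26 in cows 2 and 4 and of -0.04 to 0.06 in cows 1 and 3. The second probe set of TMED10 differed by -0.21 and went the same way. TMED6 differed by -0.15, with -0.77 in cow 2. TMED1, TMED3, TMED4, TMED5 and TMED7 differed by -0.07, -0.05, -0.05, -0.08 and -0.04.

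TRAPP genes had mean differences between -0.09 and 0.07 log2 over 8 genes, with 5 lower and none passing. In cow 2 their median was 0.21, opposite to that of the p24 genes, and 5 of the 8 were above 0.2 there, as were 29.8% of all genes. These are values of the brightest probe sets. For TRAPPC2 and TRAPPC6B these were 0.20 and 0.45 in cow 2, while their second, dimmer probe sets were at -0.34 and -0.27. TRAPPC1, a core subunit, had 8.86, 8.70, 8.89 and 8.89 in full and 8.94, 8.91, 8.85 and 9.02 in empty gland. The difference was -0.09 ± 0.07 log2 (95% interval -0.27 to 0.09, adjusted p = 0.993 in limma), and the groups overlapped. TRAPPC4, also of the core, differed by -0.08, and TRAPPC3 by -0.04. TRAPPC2 and TRAPPC2L differed by 0.07 and 0.06. TRAPPC9 and TRAPPC11, which belong to the larger complexes, differed by -0.04 and 0.03, and TRAPPC6B by -0.04.

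ARF GTPases had a median of 0.0042 over 5 genes, with 3 higher and 2 lower. ARF1, the main GTPase that recruits COPI, had 11.92, 11.31, 12.05 and 11.77 in full and 11.90, 11.95, 11.99 and 11.80 in empty gland. The low sample was the full gland of cow 2, and the mean difference was -0.15 ± 0.14 log2 (95% interval -0.48 to 0.19), or 0.02 without cow 2. ARF2 had 9.47, 9.82, 9.02 and 10.29 in full and 9.77, 9.25, 9.16 and 9.62 in empty gland, with a difference of 0.20 ± 0.19 log2 (95% interval -0.26 to 0.66). It was the highest mean difference of the 58 genes, and it was higher in cows 2 and 4 and lower in cows 1 and 3. The adjusted p was 0.993 for ARF1 and ARF2 in limma.

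ARF5 was dim, at a mean of 6.51, and had 6.55, 6.74, 6.20 and 6.75 in full and 6.58, 6.45, 6.32 and 6.53 in empty gland. Its difference was 0.09 ± 0.09 log2 (95% interval -0.14 to 0.32, adjusted p = 0.993 in limma), with the same sign as ARF2 in each cow. ARF3 differed by -0.03. ARF4 was nearly constant, with means of 12.56 in both states (SD 0.10 for full and 0.12 for empty, n = 4) and a 95% interval of the difference from -0.16 to 0.16.

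The 3 SEC22 genes had differences of -0.16 to -0.08 log2, all below 0, with none passing. SEC22B, the SNARE of ER-Golgi vesicles, had 11.37, 11.41, 11.65 and 11.22 in full and 11.42, 11.69, 11.58 and 11.43 in empty gland, a difference of -0.12 ± 0.08 (95% interval -0.32 to 0.09, adjusted p = 0.993 in limma). SEC22C had 7.70, 7.12, 7.21 and 6.95 in full and 7.60, 7.02, 7.65 and 7.35 in empty gland. It was lower in cows 3 and 4 and higher in cows 1 and 2, and its second probe set differed by 0.14 in place of -0.16. SEC14L1, of the lipid-binding family, had 10.13, 8.80, 9.84 and 9.81 in full and 10.04, 9.92, 9.65 and 9.36 in empty gland. The full gland of cow 2 was the lowest sample, and the mean difference of -0.10 ± 0.26 became 0.24 without cow 2. SEC14L2 was dim, at 5.78, and differed by 0.02.

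**Figure D5:**
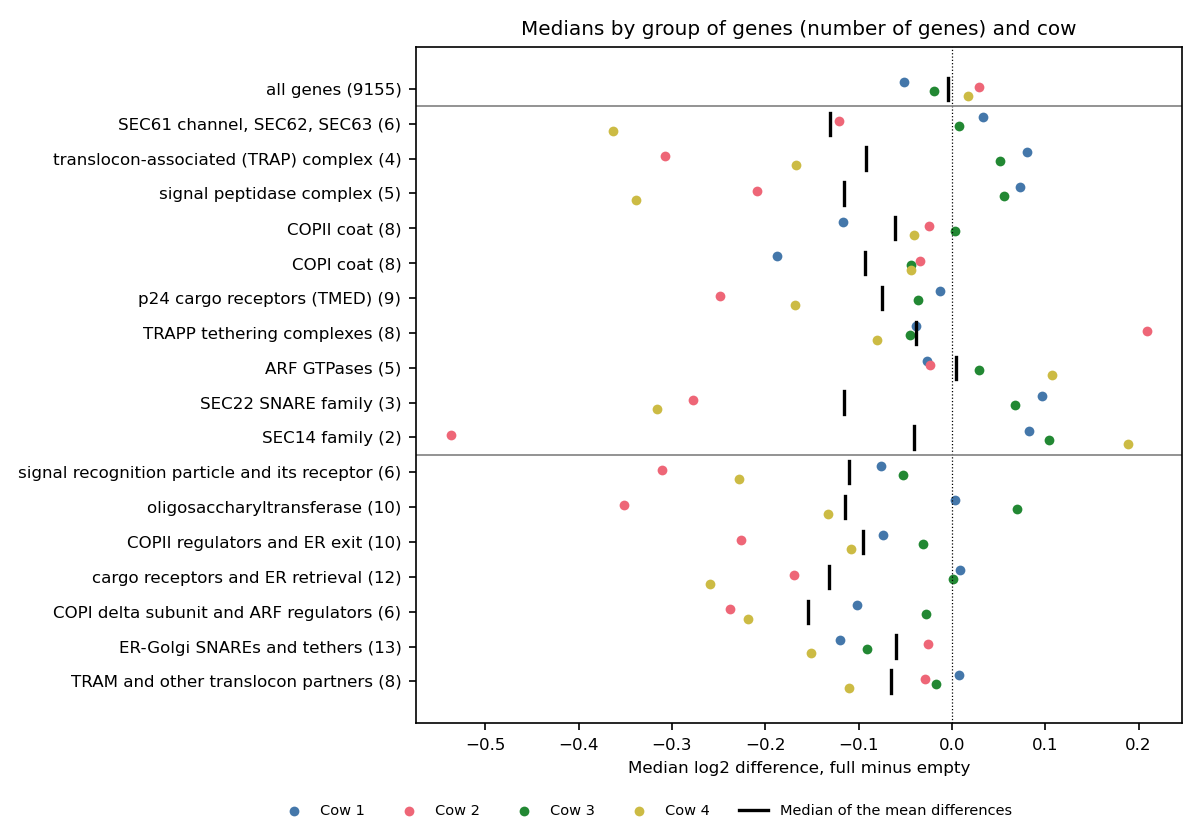
Coloured points are the median full minus empty log2 difference of each group of genes in each cow, and black bars are medians of the mean differences, for all genes, the 10 role groups and 7 further groups of the pathway. Cows 2 and 4 lie to the left of cows 1 and 3 for the translocon, TRAP, signal peptidase, p24 and SEC22 groups. This is not so for the COPII, COPI, TRAPP, ARF and SEC14 groups.

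Of the 58 genes, 21 had more than 1 probe set, and their 30 further probe sets were dimmer. Of these, 16 had the sign of the brightest one and 14 the opposite sign, so the direction often depended on the probe set. The disagreement was widest in cow 2. There the further probe sets had a median of -0.43 log2 and 27 of 30 were lower, while the brightest probe sets of the same genes had a median of -0.03 and 11 of 21 were lower. In cow 4 the medians were -0.06 and -0.15. Over all genes, 66.4% of further probe sets were lower in cow 2, with a median of -0.10. The full library of cow 2 was also the one with the wide 5' to 3' gap in GAPDH, and the part of that in these values was not tested.

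Differences between the 4 animals were compared in the same model by an F-test in limma on the terms for cow, which compares these animals and not breeds or conditions. None of the 58 genes passed, beside 0.437% of probe sets that did, and SEC62 had the lowest adjusted p of the 58, at 0.265. SEC62 and SPCS3 were the 2 genes with an unadjusted p under 0.05, while 16.9% of all genes were at that level. SEC62 had a mean over both glands of 11.84 in cow 3 and of 11.37 to 11.48 in the others. SPCS3 was lowest in cow 4, at 10.31, against 10.64 to 10.86. The next 4 genes by p were SEC22C, SEC11C, COPZ2 and SEC13, whose means spanned 0.58, 0.45, 0.56 and 0.74 log2 over the cows.

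Genes of the same route that the naming rule does not reach were measured as well, 65 in all. None passed, 54 had a mean difference below 0, 10 were lower in all 4 cows and 0 were higher in all 4. Of all genes, 51.4% were below 0, 7.11% were lower in all 4 cows and 3.59% were higher in all 4. The median of the 65 genes was -0.10 log2, and -0.02, -0.17, 0.0008 and -0.15 in cows 1 to 4. Genes of the signal recognition particle and its receptor, which bring ribosomes to the channel, were lower in 6 of 6 cases (median -0.11). SRPRA, the receptor subunit that binds the particle, differed by -0.28 ± 0.09, with -0.17, -0.41, -0.10 and -0.45 in cows 1 to 4 (adjusted p = 0.993 in limma).

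The other groups gave similar counts. Oligosaccharyltransferase genes, which attach sugar chains beside the channel, were lower in 9 of 10 cases (median -0.11), although only 1 of the 10 was lower in cow 3. COPII regulators and ER exit genes were lower in 8 of 10 (median -0.10). Among them PREB, which activates the COPII GTPase, differed by -0.21 ± 0.09, and MIA2, which helps load large cargo, by -0.21 ± 0.08, the latter in all 4 cows. SRPRA, PREB and MIA2 were the 3 of the 65 genes with an unadjusted p under 0.05 in limma, beside 256 of all 9155 genes. Cargo and retrieval receptors were lower in 9 of 12 (median -0.13), the COPI delta subunit and ARF regulators in 5 of 6 (-0.15), SNAREs and tethers in 10 of 13 (-0.06) and TRAM with other channel partners in 7 of 8 (-0.07). In cows 1 and 3 alone the medians of these 7 groups were between -0.07 and 0.02. The chaperone gene HSPA5, which encodes BiP, differed by -0.07 and went opposite ways in cows 1 and 2, at -0.23 and 0.22.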

How the data were processed

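The deposited table holds log2 values of 24128 probe sets on 8 single-colour arrays. The authors made them with RMA, per the submitters' processing notes, and no version is given in the sources used here. RMA brings arrays toward a shared distribution, and the array medians lay between 7.08 and 7.24, so a shift of most genes may be hidden. Biotinylated cRNA was made from oligo(dT)-primed cDNA, per the labels' protocols. Without the 112 platform controls, 24016 probe sets were tested, of which 13292 had 1 symbol, 86 several and 10638 none. No sequence or coordinate is given, because no genome was used here.

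Full and empty gland were compared with limma 3.58.1 in R 4.3.3 (lmFit, eBayes, two-sided) with cow as a fixed block, adjusted by Benjamini-Hochberg over all 24016 probe sets, with a threshold of 0.05. There were 3 residual and 2.81 prior degrees of freedom. The descriptions name both samples of each cow. Deviations from the group means correlated at 0.319 to 0.597 within cows and at -0.03 or below between them. Such deviations cancel over the cows, so positive values within cows push those between cows to be negative by construction. The genes and lists were chosen with earlier results of these data known, and SEC23IP was put in the COPII group after the annotation was read. Genes to describe with all values were the 5 with the smallest p in each direction, 1 per role, and the 6 that differed most between cows. SEC61A1, SEC61B, COPA, COPZ1 and SSR4 were added after their values were seen, and the others are given by their differences. Groups are described by counts and medians, without a test. The number of arrays limits the precision.

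Other settings tried were a model without the replicate block, a random effect of cow, centring on medians, a further quantile step, dropping dim probe sets, averaging all probe sets of a gene, a trended robust prior, array weights, a threshold of 0.1, leaving out each cow, cows 1 and 3 alone, and leaving out the SEC14 family.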

Additional observations from a re-analysis of the deposited data

Results flagged for a closer look

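Among 18 genes of the naming rule and the median of the 58 genes, each group of 4 samples was examined for a sample far from the other 3, in 38 groups. Such a gap arises by chance in about 1 of 20 groups, and 4 were found. COPG1 in the full gland of cow 3 was at 11.26 log2, above 10.92 to 10.95 in the other full glands. SEC62 in the empty gland of cow 3 was at 11.88, above 11.54 to 11.55. SSR3 in the empty gland of cow 3 was at 11.41, above 11.16 to 11.19. TRAPPC1 in the full gland of cow 2 was at 8.70, below 8.86 to 8.89. For SEC62 the full gland of cow 3 was also the highest of its group, and without cow 3 the mean difference was -0.24 in place of -0.20.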

How the results depend on the processing

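The counts of passing genes were 0 of 58, for full against empty gland and between cows, under the alternatives run for them, including the model with no replicate block, where 0 passed. The median difference lay between -0.09 and -0.0028, and from -0.09 to -0.04 with 1 cow left out. The number higher in full gland was 11 to 21 (12 to 21 with 1 cow left out), except in cows 1 and 3 alone, where it was 27.

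Over 18 named genes, 80 of 233 alternative values equalled the reported one, since settings such as the block do not alter the mean difference. Of the other 153, 127 kept their direction and 26 turned, and none of the 233 passed (adjusted p 0.553 to 1.00 in limma). In cows 1 and 3 alone the difference turned to 0.0021 for TMED9, 0.023 for SEC11C, 0.045 for SSR3, 0.011 for SEC22B, 0.043 for ARF1, 0.084 for SEC13 and 0.14 for SEC14L1. It turned there to -0.10 for SEC23A, -0.22 for ARF2, -0.016 for SEC61A2, -0.073 for ARF5 and -0.19 for COPZ2. With array weights it turned to 0.031 for SEC13, -0.048 for COPZ2 and 0.081 for SEC14L1. SPCS3 turned to -0.016 with median centring and to -0.092 with the mean of its probe sets, which also turned SEC61A2 to -0.0044. With 1 cow left out, values that turned ranged from -0.22 to 0.019 for ARF1, -0.24 to 0.066 for SEC13, -0.28 to 0.24 for SEC14L1, -0.040 to 0.16 for COPZ2 and -0.056 to 0.12 for SPCS3. The cause was not tested.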
